A study of Mus musculus with 8 samples.

Results

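Expression of the Wnt ligands, their Frizzled receptors, the co-receptors Lrp5 and Lrp6, the secreted inhibitors and 3 genes at the nuclear end of the pathway was examined in 4 mouse mammary tumour cell lines. The 43 genes were chosen by name from the gene families, by a rule that uses no measured value but with earlier results of these data known, and all 43 were found among the 27179 genes of the count matrix. They comprised 19 ligands, 10 receptors, 2 co-receptors, 9 secreted inhibitors and 3 target or nuclear genes. The lines were 4T1.2, 4T1, 66cl4 and 67NR, each untreated and each profiled by RNA-seq of total RNA in 2 biological replicates, giving 8 libraries. The labels spell the third line 66c14, and the spelling of the series design, 66cl4, was used. The lines are related mouse mammary carcinoma lines. The study grouped 4T1 with 4T1.2 and used 66cl4 and 67NR as relatives of lower metastatic potential. Each line is a single model grown in culture without stroma or immune cells, so a difference between lines has no replicate beyond those lines. The labels do not say whether the replicates were separate cultures. The p-values, those between the pairs of lines included, measure the spread between the 2 libraries within each line, and not that between lines. The exception is the alternative fit in which the lines were pooled into 2 groups of 4 libraries.

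Wnt proteins are lipid-modified secreted ligands that bind a Frizzled receptor on the cell surface. With the co-receptor Lrp5 or Lrp6, a ligand stabilises beta-catenin, which enters the nucleus and acts with the TCF and LEF transcription factors, while other ligand and receptor pairs signal without beta-catenin through cell polarity or calcium. Secreted inhibitors bind the ligands (the Sfrp family and Wif1) or the co-receptors (Dkk1 and Dkk2). In the mammary gland, Wnt signals are known for their part in branching and in stem cell maintenance, and Wnt1 was identified as a gene activated by mammary tumour virus insertion.

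Total counts per library ran from 37159840 to 66269681. Replicates of a line correlated with r between 0.9945 and 0.9963 across genes on the log scale and differed by more than sampling noise in every line. Of 11 mammary epithelial markers, 10 had over 3 counts in both libraries of 4T1.2 and of 4T1, and 4 did in 66cl4 and in 67NR. Their summed level was 1875 to 2188 CPM (counts scaled to library size) in 4T1.2, 2709 to 3542 in 4T1, 465 to 530 in 67NR and 719 to 722 in 66cl4. Epcam, Krt19, Cldn3, Cldn4 and Cldn7 were at or under 3 counts in 66cl4 and 67NR. The summed level of 11 mesenchymal markers was 5491 to 6625 CPM in 4T1.2, 5600 to 7510 in 4T1, 3387 to 3478 in 67NR and 4814 to 5671 in 66cl4, of which Vim gave the most in every line. Other markers on that list were higher in 66cl4 and 67NR: Zeb1 had means of 0.317 and 0.455 CPM in 4T1.2 and 4T1 against 62.5 and 64.1, and Prrx1 0.581 and 0.783 against 74.6 and 45.3. Cdh2, Twist2 and Snai2 were at or under 3 counts in 4T1.2 and 4T1, and Snai1 was in 66cl4 and 67NR. Of 10 leucocyte markers, Ptprc, Cd3e, Adgre1 and S100a9 were among those at or under 3 counts in every library. The list summed to 12.3 to 13.4 CPM in 4T1.2, 8.44 to 10.2 in 4T1, 25.7 to 25.9 in 67NR and 19.4 to 23.8 in 66cl4, with Lyz2 leading in 66cl4 and 67NR. The 6 endothelial markers summed to 0.409 to 3.8 CPM over all libraries. The part of the epithelial and mesenchymal marker differences in the results that follow was not tested. In these bulk libraries, fewer cells of a type and less RNA per cell cannot be told apart.

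Of the 43 genes, 25 passed the filter on low counts and were tested, and the other 18 were not. The tested genes were 10 of 19 ligands, 8 of 10 receptors, both co-receptors, 3 of 9 inhibitors and 2 of 3 target or nuclear genes. Of the 18, 13 had at most 3 counts in every library, namely Wnt2, Wnt3a, Wnt8a, Wnt8b, Wnt9b, Wnt16, Fzd8, Fzd10, Sfrp2, Sfrp5, Frzb, Dkk1 and Dkk2. The 6 genes Wnt2, Wnt8b, Fzd10, Sfrp2, Frzb and Dkk1 had no count in any library. The other 5 untested genes were low but not at the floor. Wnt1, the ligand of the mammary tumour virus model, had 9 and 3 counts in 4T1.2, 3 and 4 in 4T1, 1 and 0 in 66cl4 and 0 in both 67NR libraries. Wnt5a, a ligand best known for signals without beta-catenin, had 4 and 6 counts in 66cl4, 2 and 1 in 67NR and none in 4T1.2 or 4T1. Lef1, a transcription factor of the pathway, was read only in 4T1, with 8 and 2 counts. Wnt3 had at most 8 counts, in a 4T1 library, and Sfrp4 at most 5, in a 66cl4 library.

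**Figure D1:**
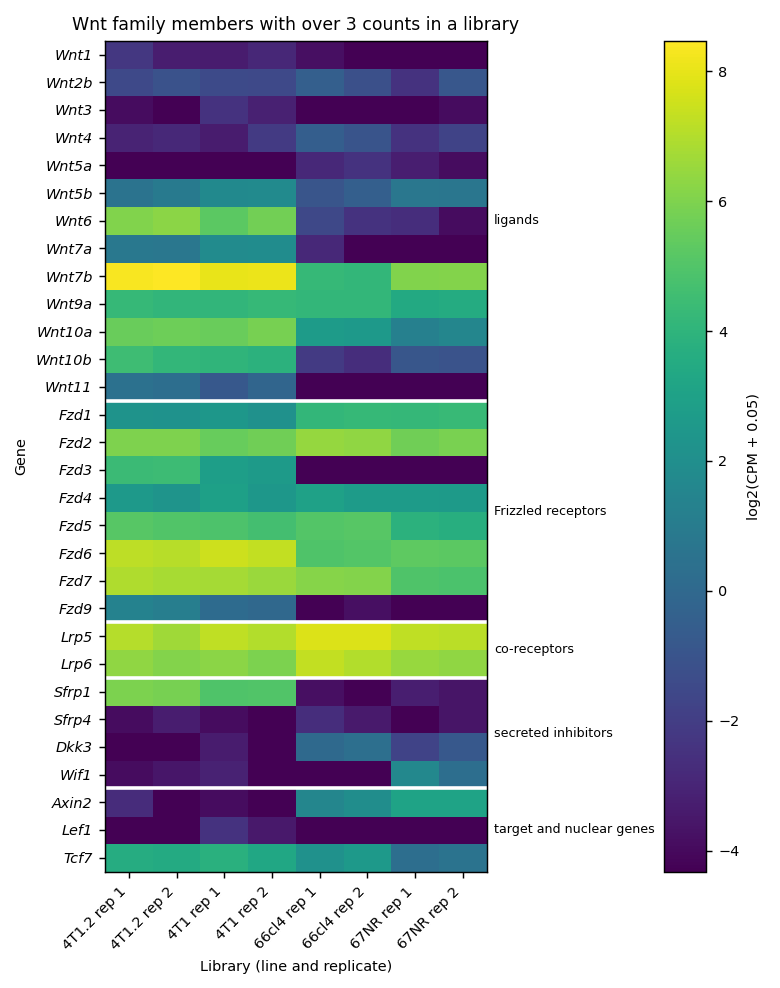
Level of each gene with over 3 counts in at least 1 library (rows, by role) in each of the 8 libraries (columns), as log2(CPM + 0.05) on the colour scale. Wnt6, Wnt10b, Fzd3, Fzd9 and Sfrp1 are higher in the 4T1.2 and 4T1 columns than in 66cl4 and 67NR, while Axin2 and Dkk3 show the opposite.

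In the comparison of 4T1 and 4T1.2 with 66cl4 and 67NR, which addresses what separates the study's 2 pairs of lines, 15 of the 25 tested genes were higher in the 4T1 pair, 7 were lower and 3 did not pass the test (edgeR quasi-likelihood F-test, Benjamini-Hochberg adjusted over 13927 genes, threshold 0.05). That is 88.0% of the tested members, beside 76.8% of all genes tested in the same comparison, of which 38.1% were higher and 38.6% lower. Of the members, 17 passed with a fitted change over 2-fold (13 higher, 4 lower), beside 31.9% of all genes (15.9% higher, 16.0% lower). The libraries of the 2 pairs did not overlap in CPM for 15 of 25 members, beside 55.5% of all genes. The median log2 fold change of the members was 1.26, also with genes at 0 counts in a pair placed at their bounds, and that of all genes was -0.01. Wnt5b, Wnt9a, Fzd2 and Fzd5 did not pass when the lines were pooled into 2 groups of 4 libraries (adjusted p = 0.058, 0.184, 0.167 and 0.40). Genes that passed the filter only through the pair where they were read had to differ, so these counts describe the tested members and not the family.

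Of the 10 tested ligands, 8 were higher in 4T1 and 4T1.2 and 1 was lower. Wnt7b (Entrez 22422, chr15:85535437-85581821), a ligand of the developing lung and kidney, had the highest level of all ligands per length in 3 of the 4 lines. Gene positions are given on GRCm38. It stood at 329 and 355 CPM in 4T1.2, 265 and 275 in 4T1, 67.0 and 67.7 in 67NR and 18.8 and 17.7 in 66cl4. Each line was separate from the others, in the order 4T1.2, 4T1, 67NR, 66cl4. The 4T1 pair was 8.66-fold higher (log2 fold change 3.11 ± 0.06 (SE), adjusted p = 7.23e-11). Of the exon bases of Wnt7b, 6.61% overlap the opposite-strand gene AU022754, and the strand setting of the counting is not given in the sources used here.

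Wnt6 and Wnt10a (Entrez 22420 and 22409) are adjacent on mouse chromosome 1 (GRCm38, chr1:74754342-74785322 and chr1:74792019-74804176), 6.7 kb apart. Wnt6, a ligand of ectodermal and kidney epithelium, was read at 66.1 and 76.6 CPM in 4T1.2 and 37.5 and 52.9 in 4T1, against 0.109 and 0.0162 in 67NR and 0.287 and 0.134 in 66cl4. All 4 libraries of 66cl4 and 67NR together held 24 counts and those of the 4T1 pair 12852. The ratio of the summed, depth-scaled counts was 457 (95% exact interval 307 to 713, counting error only, adjusted p = 4.82e-10). The fitted log2 fold change was 9.05, and 9.82 without 67NR replicate 1. Wnt10a, a ligand known from hair follicle and tooth development, stood at 47.5 and 49.8 CPM in 4T1.2, 46.5 and 57.1 in 4T1, 2.37 and 2.85 in 67NR and 6.49 and 6.02 in 66cl4. It was 12.3-fold higher in the 4T1 pair (log2 fold change 3.63 ± 0.10, adjusted p = 5.22e-10), and the libraries of 66cl4 and 67NR did not overlap either.

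Wnt10b, a ligand that activates beta-catenin signalling in mammary and adipose tissue, lies on chromosome 15 (Entrez 22410, chr15:98770712-98778206), 11.7 kb from Wnt1. Its level was 22.3 and 17.5 CPM in 4T1.2 and 16.5 and 14.9 in 4T1, against 0.491 and 0.437 in 67NR and 0.177 and 0.111 in 66cl4. The ratio between the pairs was 58.3 (95% interval 45 to 76.9, adjusted p = 4.03e-10). The low neighbour Wnt1 was read with more counts in the 4T1 pair as well.

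Wnt7a and Wnt11 were low in every line, and their CPM separated the same pairs. Wnt7a (Entrez 22421, chr6:91363981-91411353), known from limb patterning and the female reproductive tract, stood at 1.69 and 1.66 CPM in 4T1.2, 3.55 and 3.69 in 4T1, 0.0883 and 0 in 66cl4 and 0 in both 67NR libraries. With 578 counts against 4, the ratio was 123 (95% interval 47.9 to 454, adjusted p = 4.09e-07). All 4 counts were in 66cl4 replicate 1, without which the fitted change moved from 7.85 to 10 on the log2 scale. Fitted values against libraries at or near 0 depend on the prior count and are no bounds. Wnt11 (Entrez 22411, chr7:98835084-98854747), a ligand of cell movement in the embryo, had 215 counts in the 4T1 pair and none in the other 4 libraries. It was at least 61.1-fold higher against a floor of 3 counts over those libraries (adjusted p = 6.72e-06), with 8.8% of its exon bases shared with the opposite-strand Gm8398.

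Of the remaining tested ligands, Wnt5b, Wnt9a, Wnt4 and Wnt2b, the first 3 passed the test but their libraries overlapped between the pairs. Wnt5b, a relative of Wnt5a, ranged from 1.43 to 3.49 CPM in the 4T1 pair and from 0.463 to 1.66 in the other lines (log2 fold change 1.28 ± 0.17, adjusted p = 5.8e-05). Wnt9a, a ligand of joint formation, ranged from 16.9 to 19.0 CPM over the libraries of 4T1.2, 4T1 and 66cl4 and was 11.0 and 11.5 in 67NR. Between the pairs, Wnt9a changed by 0.34 ± 0.08 on the log2 scale (adjusted p = 0.00261). Against 66cl4 alone it was 0.01 ± 0.11 for 4T1.2 and 0.02 ± 0.11 for 4T1 (adjusted p = 0.947 and 0.854), and against 67NR alone 0.66 and 0.67 (adjusted p = 4.97e-04 and 4.29e-04). Wnt4, which acts downstream of progesterone in the mammary gland, was the 1 ligand that was lower in the 4T1 pair (-1.86 ± 0.42, adjusted p = 0.00246). Against 66cl4 alone Wnt4 gave -2.77 in 4T1.2 and -2.40 in 4T1 (adjusted p = 0.00124 and 0.00236). Against 67NR alone Wnt4 gave -1.31 and -0.94 without passing (adjusted p = 0.097 and 0.204). Its highest level was 0.662 CPM, in 66cl4. Wnt2b, at 0.136 to 0.684 CPM over all libraries, had a log2 fold change of -0.38 ± 0.36 (adjusted p = 0.358).

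Put on a per-length scale, all ligand levels in a line were summed as RPKM, which is CPM divided by the deposited gene length in kilobases. The sum was 153 ± 6.76 RPKM in 4T1.2, 125 ± 10.9 in 4T1, 21.1 ± 0.418 in 67NR and 13.4 ± 0.479 in 66cl4 (SD, n = 2), with no overlap between any 2 lines. Wnt7b gave 50.6% of the sum in 4T1.2, 48.9% in 4T1 and 72.4% in 67NR. In 66cl4 the leading ligand was Wnt9a, with 39.8% of the sum, and Wnt7b gave 30.8%. The next ligand on the RPKM scale was Wnt6 in 4T1.2 (22.6%), Wnt10a in 4T1 (21.1%) and Wnt9a in 67NR (16.1%).

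**Figure D2:**
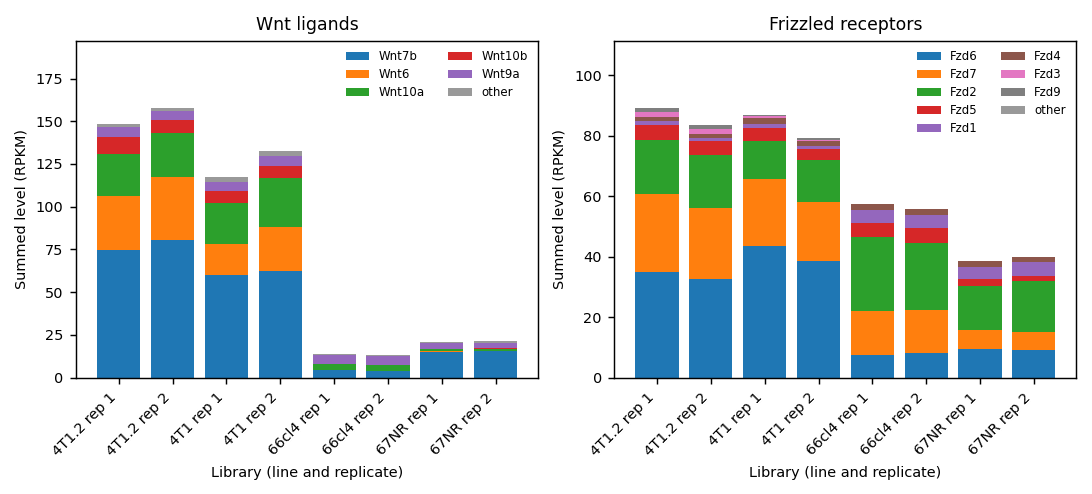
Summed level in RPKM (vertical axis) of the Wnt ligands, left, and the Frizzled receptors, right, in each library (horizontal axis), with each gene as a coloured segment. The ligand sum is 148 and 158 RPKM in the 4T1.2 libraries and 13.4 ± 0.479 (SD) in 66cl4, and Wnt7b is the tallest segment outside 66cl4.

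Windows of 250 bases before an annotated start of transcription are shown for 4 genes with few or no counts in one pair of lines. These are 3 in 66cl4 and 67NR (Wnt6, Wnt7a, Fzd9) and 1 in 4T1 and 4T1.2 (Axin2). The windows of Wnt6 and Axin2 lie inside the spans given here for these genes, and not before their first base. The sequences are from RefSeq on GRCm38.p6 and read 5′ to 3′ on the strand of the gene, with each CG dinucleotide in capitals. They cover chr1:74771642-74771891 on the plus strand (Wnt6), chr6:91411354-91411603 on the minus strand (Wnt7a), chr5:135251048-135251297 on the minus strand (Fzd9) and chr11:108920099-108920348 on the plus strand (Axin2).
Wnt6: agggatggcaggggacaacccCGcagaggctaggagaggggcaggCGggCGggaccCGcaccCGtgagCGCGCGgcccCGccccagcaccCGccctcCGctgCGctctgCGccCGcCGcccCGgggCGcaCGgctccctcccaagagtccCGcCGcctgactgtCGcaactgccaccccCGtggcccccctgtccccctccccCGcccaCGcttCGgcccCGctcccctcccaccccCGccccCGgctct
Wnt7a: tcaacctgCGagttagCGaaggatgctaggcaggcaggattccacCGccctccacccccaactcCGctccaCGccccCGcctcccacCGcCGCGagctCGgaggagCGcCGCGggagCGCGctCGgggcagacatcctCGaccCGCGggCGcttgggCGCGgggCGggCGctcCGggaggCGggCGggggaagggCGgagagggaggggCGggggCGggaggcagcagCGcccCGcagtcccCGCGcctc
Fzd9: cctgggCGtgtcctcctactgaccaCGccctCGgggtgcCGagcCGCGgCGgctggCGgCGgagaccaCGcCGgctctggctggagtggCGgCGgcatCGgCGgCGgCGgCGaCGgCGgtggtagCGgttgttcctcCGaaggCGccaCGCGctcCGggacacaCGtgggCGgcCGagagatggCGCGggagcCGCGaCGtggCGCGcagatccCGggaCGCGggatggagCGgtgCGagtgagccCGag
Axin2: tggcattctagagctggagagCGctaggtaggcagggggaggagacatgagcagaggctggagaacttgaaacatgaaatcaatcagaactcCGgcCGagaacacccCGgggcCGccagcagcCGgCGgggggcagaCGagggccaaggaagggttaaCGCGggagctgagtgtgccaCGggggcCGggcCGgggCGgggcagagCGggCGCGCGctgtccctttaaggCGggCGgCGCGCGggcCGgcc
These windows held 28, 34, 42 and 24 CG dinucleotides and were 79.6%, 77.6%, 76.4% and 69.2% G or C, in that order. The median over 32851 RefSeq windows of the same length was 6 CG dinucleotides and 52.4%. Over the members with counts in every library, windows held from 4 (Wnt5b) to 48 (Wnt9a) CG dinucleotides. That of Wnt10b, low in 66cl4 and 67NR, held 14. A high number was thus not particular to the genes shown. The TCF and LEF core CTTTGA (either strand, also read as TCAAAG) occurred in none of the 4, in 6 of the 37 windows of the 30 members with a window (16.2%, 1 window each of Dkk1, Frzb, Fzd1, Lef1, Wnt11 and Wnt5b) and in 13.8% of all windows. Each match is a description of letters and not of a binding site, and DNA methylation was not measured.

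Of 8 tested Frizzled receptors, 5 were higher in the 4T1 pair and 2 were lower. Fzd3 (Entrez 14365, chr14:65192441-65262463), a receptor of axon guidance and planar polarity, stood at 21.0 and 21.5 CPM in 4T1.2 and 7.15 and 6.32 in 4T1, and had no count in any 66cl4 or 67NR library. With 3142 counts against 0 it was at least 894-fold higher (floor of 3 counts over the 4 libraries, adjusted p = 4.97e-09). Fzd9 (Entrez 14371, chr5:135248938-135251047), a receptor studied in hippocampus and bone, followed the same pattern at a lower level, with 2.48 and 2.15 CPM in 4T1.2, 1.05 and 0.948 in 4T1, and it had a single count in 66cl4 and none in 67NR. Its ratio of 317 had an interval of 56.5 to 12535 (371 counts against 1, adjusted p = 3.04e-07). Without 66cl4 replicate 2, which held that count, the fitted log2 fold change of Fzd9 moved from 8.05 to 9.31.

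Fzd6 (Entrez 14368, chr15:39006149-39038192), a receptor of planar polarity in hair and skin, was the most abundant Frizzled in the 4T1 pair. It stood at 145 and 135 CPM in 4T1.2, 180 and 159 in 4T1, 38.7 and 37.7 in 67NR and 30.6 and 33.0 in 66cl4. The 4T1 pair was 4.41-fold higher (log2 fold change 2.14 ± 0.07, adjusted p = 1.56e-09), and 3.15% of its exon bases are shared with the opposite-strand Gm26704. Fzd7 (Entrez 14369, chr1:59482147-59486955), a receptor named in mammary and intestinal stem cell work, was graded across the lines, at 124 and 112 CPM in 4T1.2, 107 and 94.0 in 4T1, 30.9 and 28.7 in 67NR and 70.4 and 68.8 in 66cl4. It was 2.39-fold higher in the 4T1 pair (1.26 ± 0.07, adjusted p = 1.12e-07). From high to low the order was 4T1.2, 4T1, 66cl4, 67NR, in which 4T1.2 and 4T1 were not separated (0.23 ± 0.10, adjusted p = 0.15) and the other neighbours were. Fzd5, a receptor of eye and gut development, was 0.47 ± 0.09 higher on the log2 scale (adjusted p = 8.72e-04), at 35.5 and 31.7 CPM in 4T1.2, 29.7 and 24.7 in 4T1, 15.1 and 12.9 in 67NR and 33.0 and 35.4 in 66cl4. Here 66cl4 lay with the 4T1 pair, and 17.8% of Fzd5 exon bases are shared with the opposite-strand Gm38058.

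Fzd1 (Entrez 14362, chr5:4753839-4758216), close in sequence to Fzd2 and Fzd7, was lower in the 4T1 pair. It stood at 4.64 and 4.48 CPM in 4T1.2 and 5.45 and 4.46 in 4T1, against 18.2 and 19.7 in 67NR and 17.9 and 18.7 in 66cl4. The pairs did not overlap and Fzd1 was 3.91-fold lower (log2 fold change -1.97 ± 0.09, adjusted p = 2.74e-08). Within the pairs, Fzd1 gave -0.12 ± 0.14 for 4T1.2 against 4T1 and -0.05 ± 0.12 for 66cl4 against 67NR (adjusted p = 0.586 and 0.76). Fzd2 was lower by a smaller amount (-0.31 ± 0.07, adjusted p = 0.0033), and its libraries overlapped, from 45.2 to 64.5 CPM in the 4T1 pair and from 52.6 to 88.5 in the other lines. Against 66cl4 alone Fzd2 gave -0.39 in 4T1.2 and -0.81 in 4T1 (adjusted p = 0.00736 and 8.17e-05). Against 67NR alone Fzd2 gave 0.18 and -0.23 without passing (adjusted p = 0.149 and 0.075). Fzd4, the receptor of Norrin in retinal vessels, had a log2 fold change of -0.18 ± 0.14 (adjusted p = 0.251). The summed Frizzled level on the RPKM scale was 86.1 ± 4.12 in 4T1.2, 82.9 ± 5.60 in 4T1, 39.1 ± 1.01 in 67NR and 56.5 ± 1.32 in 66cl4 (SD, n = 2). Fzd6 gave 39.2% and 49.3% of that sum in 4T1.2 and 4T1, and Fzd2 gave 41.2% and 39.9% in 66cl4 and 67NR, so the leading receptor changed between the pairs.

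Both co-receptors were lower in the 4T1 pair and highest in 66cl4. Lrp5, known for its part in bone mass, stood at 131 and 100 CPM in 4T1.2, 153 and 129 in 4T1, 222 in both 66cl4 libraries and 151 and 144 in 67NR. Its log2 fold change between the pairs was -0.50 ± 0.09 (adjusted p = 6.69e-04). Against 66cl4 alone it was -0.94 in 4T1.2 and -0.66 in 4T1 (adjusted p = 1.36e-04 and 0.00136), and against 67NR -0.35 and -0.06 (adjusted p = 0.0378 and 0.685). The call of 0.0378 was lost in 5 of the leave-one-out fits (0.0533 to 0.271). Lrp6, which signals with Frizzled in many tissues, stood at 81.7 and 67.3 CPM in 4T1.2, 76.9 and 61.6 in 4T1, 89.4 and 81.1 in 67NR and 157 and 127 in 66cl4, a log2 fold change of -0.61 ± 0.10 (adjusted p = 3.57e-04). Against 66cl4 alone, Lrp6 was 1.91-fold lower in 4T1.2 and 2.05-fold lower in 4T1 (adjusted p = 2.99e-04 and 1.42e-04). Against 67NR it did not pass the test in either line (adjusted p = 0.262 and 0.0943).

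Among the secreted inhibitors, Sfrp1 (Entrez 20377, chr8:23411383-23449632), which binds Wnt ligands outside the cell, was read at 61.3 and 56.9 CPM in 4T1.2 and 31.3 and 31.4 in 4T1, against at most 0.0545 in any 66cl4 or 67NR library. The libraries of the 4T1 pair held 10081 counts and the others 5. The ratio was 1720 (95% interval 737 to 5299, adjusted p = 2.14e-11), the largest fitted change among members with counts in both pairs (log2 10.80, and 12.05 without 66cl4 replicate 1). In the 4T1 pair Sfrp1 carried 99.7% (4T1.2) and 99.6% (4T1) of the summed inhibitor level on the RPKM scale, which was 13.6 ± 0.701 and 7.20 ± 0.0189 there and 1.11 ± 0.525 in 67NR and 0.412 ± 0.0194 in 66cl4 (SD, n = 2). Dkk3 (Entrez 50781, chr7:112116019-112159482), a Dickkopf family protein, had 3 counts in the 4T1 pair, all in 1 library of 4T1, against 9 and 33 in 67NR and 45 and 55 in 66cl4 (55.5-fold lower, interval 18.6 to 272, adjusted p = 2.45e-05). Without that library, 4T1 replicate 1, its fitted log2 fold change moved from -6.31 to -8.09. Wif1 (Entrez 24117, chr10:121034004-121100642), a ligand-binding inhibitor, was read almost only in 67NR, with 112 and 74 counts there (3.05 and 1.2 CPM). It had no count in 66cl4 and at most 4 in any library of the 4T1 pair. Its pooled counts, 7 against 186, gave a ratio of 31.1 (95% interval 14.8 to 78.5). The fitted pooled change averages over 66cl4 at 0 counts and had a wide error (log2 -1.07 ± 6.06, adjusted p = 0.882).

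The 2 tested genes at the nuclear end moved in opposite directions. Axin2 (Entrez 12006, chr11:108917828-108950783), a negative regulator that is a widely used transcriptional target of beta-catenin signalling, stood at 0.106 and 0 CPM in 4T1.2 and 0.0164 and 0 in 4T1, against 8.61 and 8.52 in 67NR and 2.89 and 3.81 in 66cl4. In counts this was 7 against 1144, 192-fold lower in the 4T1 pair (95% interval 92.7 to 478, adjusted p = 3.85e-08). Of the 7 counts, 6 were in 4T1.2 replicate 1, and the fitted log2 fold change of -7.72 became -9.95 without that library and -8.83 without 4T1 replicate 1. Of its exon bases, 3.8% are shared with the opposite-strand Gm11670. Tcf7 (Entrez 21414, chr11:52246527-52283383), the transcription factor TCF1 and itself described as a target in other tissues, stood at 12.2 and 11.1 CPM in 4T1.2, 13.8 and 9.79 in 4T1, 1.2 and 1.42 in 67NR and 4.37 and 6.09 in 66cl4. It was 4.45-fold higher in the 4T1 pair (log2 fold change 2.15 ± 0.16, adjusted p = 7.59e-07). The order of Axin2 across the lines differed from that of the ligand sum: Axin2 was highest in 67NR, where the ligand sum was 21.1 RPKM, and lowest in the pair with ligand sums of 153 and 125 RPKM. Nkd1, Nkd2 and Sp5, listed as feedback genes of the pathway, had at most 2 counts in any library, 67NR included. The relation of ligand level to pathway activity was not tested.

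**Figure D3:**
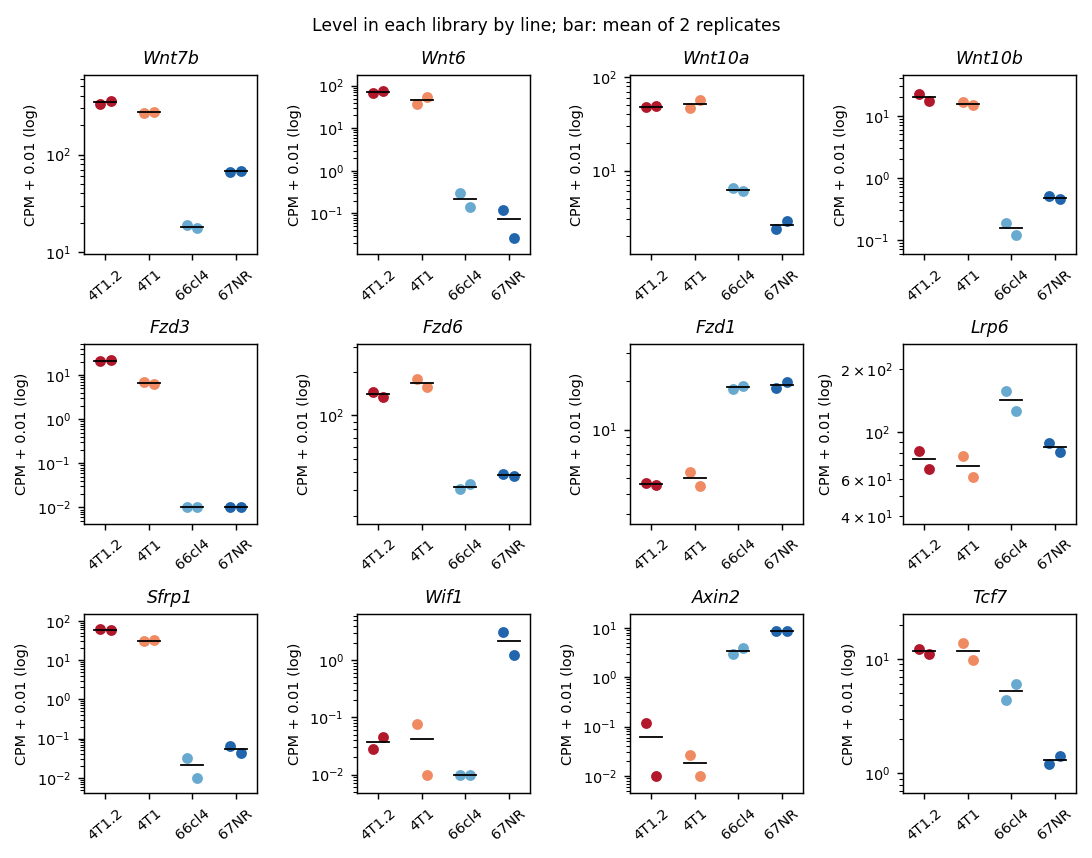
Level of 12 genes in each library as CPM + 0.01 (vertical axis, log scale) by line (horizontal axis), with each replicate as a point and the mean of 2 as a bar. Wnt7b falls from 342 CPM in 4T1.2 to 18.3 in 66cl4, Fzd3 and Sfrp1 lie at or near 0 in 66cl4 and 67NR, and Axin2 is highest in 67NR.

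The comparison of 4T1.2 with 4T1 asks what differs between the line that spreads to bone and its parental line. Of the 25 tested genes, 6 were higher in 4T1.2 and 2 were lower, which is 32.0%, beside 19.3% of all genes tested (9.37% higher and 9.92% lower). The median log2 fold change was 0.11, or 0.17 without 1 gene at 0 counts in a line, beside 0.00 over all genes. Fzd3 was higher by 1.65 ± 0.14 (log2, adjusted p = 2.05e-04), with 21.0 and 21.5 CPM against 7.15 and 6.32, and Sfrp1 by 0.92 ± 0.11 (adjusted p = 4.41e-04), with 61.3 and 56.9 CPM against 31.3 and 31.4. Both passed when any single library was left out. Fzd9 was higher by 1.21 ± 0.23 (adjusted p = 0.00802) and Wnt6, Wnt7b and Fzd2 by 0.66, 0.34 and 0.42 (adjusted p = 0.0354, 0.0181 and 0.0222). Wnt5b and Wnt7a were lower by 1.05 and 1.11 on the log2 scale, at 1.43 and 1.83 CPM against 3.26 and 3.49 for Wnt5b and 1.69 and 1.66 against 3.55 and 3.69 for Wnt7a (adjusted p = 0.00675 and 0.0182). The other 6 calls were each lost without at least 1 library. Without 4T1.2 replicate 1, which lost all 6, the log2 fold changes were -0.88 for Wnt5b, 0.76 for Wnt6 and -1.12 for Wnt7a. Those of Wnt7b, Fzd2 and Fzd9 were 0.40, 0.42 and 1.10. The calls lost without 4T1.2 replicate 2 were Wnt6 (0.54), Wnt7a (-1.10), Wnt7b (0.28) and Fzd2 (0.41). Those lost without 4T1 replicate 1 were Wnt6 (0.43) and Fzd2 (0.33). Of the other members, Tcf7 gave -0.02 ± 0.19 (adjusted p = 0.975) and Wnt10a -0.09 ± 0.12 (adjusted p = 0.678), and Axin2 was too low in both lines to compare (6 counts against 1).

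In the comparison of 66cl4 with 67NR, 10 of 25 genes were higher in 66cl4 and 6 were lower, 64.0% beside 44.6% of all genes tested (22.2% higher and 22.4% lower). The median log2 fold change was 0.59, or 0.58 with genes at 0 counts in a line at their bounds or left out, beside 0.00 over all genes. The receptors Fzd7 (1.23 ± 0.10, adjusted p = 1.3e-05) and Fzd5 (1.29 ± 0.13, adjusted p = 4.36e-05) were higher in 66cl4, as were Lrp5 (0.59 ± 0.13, adjusted p = 0.0049) and Lrp6 (0.74 ± 0.15, adjusted p = 0.00265), and Fzd2 by 0.58 (adjusted p = 0.00167). The ligands split, with Wnt7b lower by 1.88 ± 0.09 (adjusted p = 4.18e-07) and Wnt5b lower by 1.47 ± 0.26 (adjusted p = 0.00141), while Wnt10a was higher by 1.24 ± 0.15 (adjusted p = 1.38e-04) and Wnt9a by 0.65 ± 0.11 (adjusted p = 0.00117). Axin2 was lower in 66cl4 by 1.35 ± 0.26 on the log2 scale (2.89 and 3.81 CPM against 8.61 and 8.52, adjusted p = 0.00231), and Tcf7 was higher by 1.97 ± 0.24 (adjusted p = 1.49e-04). Wif1 was at least 56.8-fold lower in 66cl4, where it had no count, against 186 counts in 67NR (adjusted p = 3.62e-04). Wnt4 and Dkk3 were higher in 66cl4 by 1.45 and 1.41 and Wnt10b and Fzd6 were lower by 1.65 and 0.26 (adjusted p = 0.03, 0.0225, 0.00755 and 0.0489). These 4 calls were lost without 1 library, Wnt4 without 66cl4 replicate 1 or either 67NR replicate (adjusted p = 0.164, 0.138 and 0.0673), Dkk3 without 66cl4 replicate 2 or 67NR replicate 1 (0.0997 and 0.114), Wnt10b without 66cl4 replicate 2 (0.0631) and Fzd6 without each of the 4 libraries in turn (0.0702 to 0.213). Under DESeq2, Wnt4 and Dkk3 did not pass (adjusted p = 0.108 and 0.0543), nor did Fzd6 under limma-voom (0.0655). Wnt6 differed by 1.99 ± 0.87 without passing (adjusted p = 0.0898).

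**Figure D4:**
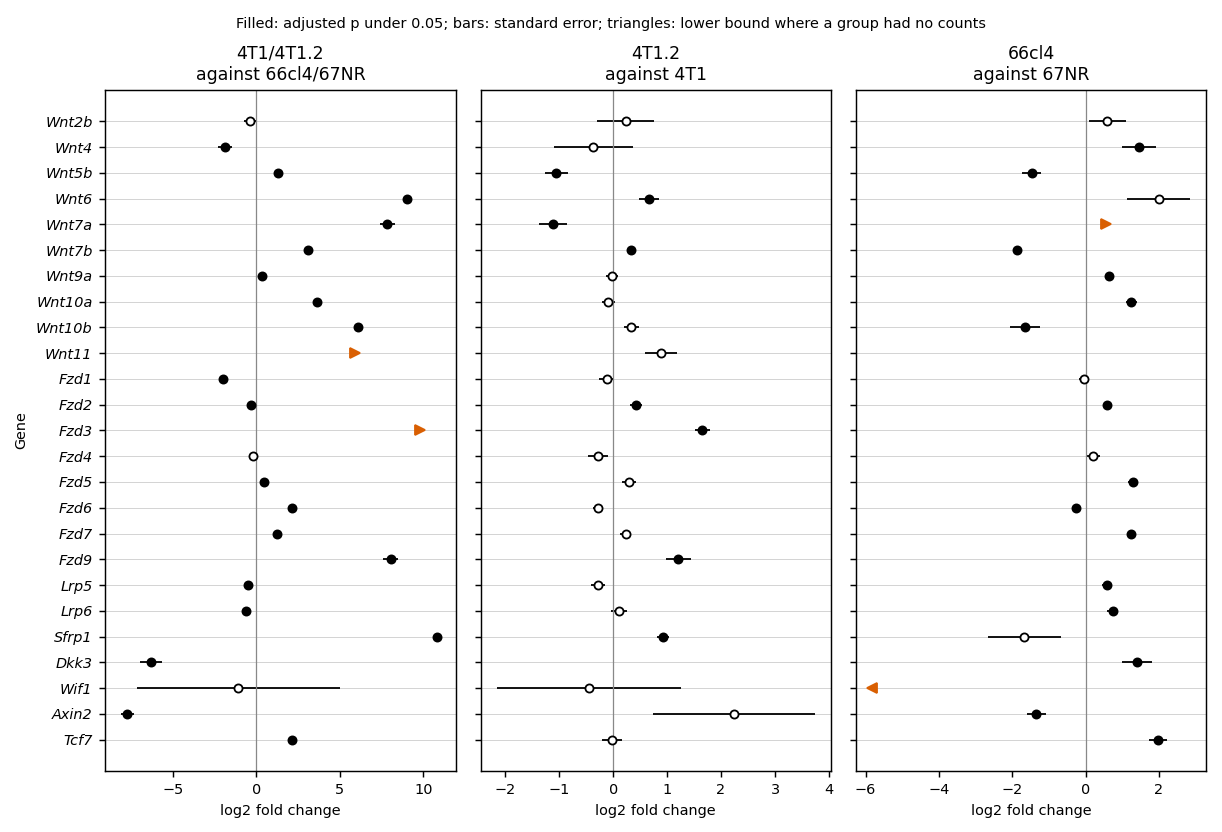
Log2 fold change (horizontal axis) of the 25 tested genes (vertical axis) in the 3 comparisons, with standard errors as bars. Filled points have adjusted p under 0.05, triangles mark lower bounds where a group had no count, and a gene is left out where neither could be given. Of the triangles, that of Wnt7a in the third panel did not pass the test. The first panel holds the widest changes, from Axin2 at -7.72 to Sfrp1 at 10.80.

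Comparing each of the 4T1 lines with each of the other lines separately, which uses the same libraries and so is no independent support, showed which line carried a pooled difference. Against 66cl4, 13 members were higher and 7 lower in 4T1.2 (68.8% of all genes passed, 34.3% higher and 34.5% lower), and 13 were higher and 8 lower in 4T1 (70.1%, 34.9% higher and 35.2% lower). Against 67NR, 14 were higher and 5 lower in 4T1.2 (67.9%, 33.7% higher and 34.1% lower), and 15 were higher and 4 lower in 4T1 (68.2%, 33.9% higher and 34.4% lower). For Wnt7b the log2 fold change was 4.23 and 3.89 against 66cl4 and 2.34 and 2.00 against 67NR for 4T1.2 and 4T1. Tcf7 showed the reverse, with 1.16 and 1.18 against 66cl4 and 3.13 and 3.15 against 67NR. Fzd1 lay between -1.88 and -2.06 in all 4 comparisons. Fzd5 gave -0.02 (adjusted p = 0.87) between 4T1.2 and 66cl4 and 1.27 (adjusted p = 1.5e-05) between 4T1.2 and 67NR. The small Fzd5 difference between 4T1 and 66cl4 (-0.33, adjusted p = 0.0403) was lost in 7 alternatives, with adjusted p from 0.0538 with at least 10 counts in every library to 0.222 without 4T1 replicate 2, where it was -0.19. Wnt5b in 4T1.2 was not separated from 67NR (0.02 ± 0.22, adjusted p = 0.933) and was higher than in 66cl4 (1.49 ± 0.26, adjusted p = 5.36e-04).

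A list of 41 other pathway genes was described beside the members, of which 25 were tested: 7 were higher and 12 lower in the 4T1 pair (76.0%, beside 76.8% of all genes), with a median log2 fold change of -0.24. The 3 with the largest rises were Lgr6, a receptor for R-spondins, by 9.28 ± 0.19 (adjusted p = 6.4e-11), Ptk7, a pseudokinase of planar polarity, by 8.73 ± 0.16 (adjusted p = 4.32e-11), and Notum, an enzyme that removes the lipid from Wnt proteins, by 5.26 ± 0.16 (adjusted p = 1.02e-09). Ptk7 stood at 125 and 98.6 CPM in 4T1.2, 110 and 94.2 in 4T1 and at most 0.463 in any other library. Lgr6 stood at 69.7 and 56.8 CPM in 4T1.2, 31.8 and 27.6 in 4T1 and at most 0.13 in any other library. Notum stood at 18.3 and 17.0 CPM in 4T1.2, 6.81 and 7.52 in 4T1, 0.191 and 0.081 in 67NR and 0.662 and 0.713 in 66cl4. The 3 largest falls were smaller: Amer1 by 1.46, Gsk3b by 0.87 and Dvl3 by 0.82 on the log2 scale (adjusted p = 1.37e-07, 7.22e-06 and 7.28e-04). Amer1 and Gsk3b belong to the complex that degrades beta-catenin, and Dvl3 relays the Frizzled signal. The gene for beta-catenin itself, Ctnnb1, was looked up after the values were seen and was higher by 0.63 ± 0.07 (adjusted p = 1.23e-05). Tcf7l1 and Tcf7l2, also looked up later, had log2 fold changes of 2.03 ± 0.15 and -0.72 ± 0.16 (adjusted p = 1.07e-06 and 0.00202). For Tcf7l1 the pooled change was carried by 67NR, and libraries overlapped between the pairs. Relative to 67NR, Tcf7l1 was higher by 4.02 (4T1.2) and 3.98 (4T1) on the log2 scale (adjusted p = 2.95e-07 and 3.2e-07). Relative to 66cl4, the same 2 changes were 0.08 and 0.04 without passing (adjusted p = 0.724 and 0.869). Between 4T1.2 and 4T1, 4 of the 25 passed (16.0%, beside 19.3% of all genes, 9.37% higher and 9.92% lower), each higher in 4T1.2, namely Notum by 1.30, Lgr6 by 1.09, Amer1 by 0.88 and Porcn by 0.59 on the log2 scale. Leaving out 1 library gave 3 to 9 (9 without 4T1 replicate 1). Between 66cl4 and 67NR, 10 were higher and 3 lower (52.0%, beside 44.6% of all genes, 22.2% higher and 22.4% lower). Leaving out 1 library gave 8 to 16 (8 without 67NR replicate 2).

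The genes around the members were examined for differences along the chromosome. Within 500 kb of Wnt6, 29 tested genes had a median log2 fold change of -0.20 between the pairs, and 3 were higher by over 2-fold, Wnt10a among them (3.63) with Cdk5r2 (5.90) and Tuba4a (1.07). The other 3 changes over 2-fold there were lower, for Slc23a3 (-1.82), Plcd4 (-1.70) and Atg9a (-1.02). Over all genes tested, 31.9% passed with a change over 2-fold, 15.9% higher and 16.0% lower. The neighbours counted here were taken by fold change alone, and those over 2-fold all passed the test as well. Around Fzd3 none of 8 tested genes was higher by over 2-fold and 2 were lower (median -0.02). Whole-chromosome medians between the pairs ran from -0.44 (X) to 0.51 (chromosome 14, which holds Fzd3), beside -0.01 over all genes. For 4T1.2 against 4T1, the median of chromosome 14 was 0.24, beside 0.0. The part of this shift in the Fzd3 difference was not tested. Around Sfrp1 none of 6 was higher and 1 was lower by over 2-fold (median -0.45). Around Fzd6, 5 of 6 tested neighbours were higher by over 2-fold (median 1.66). Fzd9 has the epithelial markers Cldn3 (11.63) and Cldn4 (7.27) among its 19 tested neighbours (median 0.60). Of the 28 tested neighbours of Wnt10b (median 0.02), 7 were higher by over 2-fold, with Dhh at 10.34, and 1 was lower.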

How the data were processed

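RNA was profiled in 8 libraries, 2 of each line. The authors deposited raw counts per Entrez gene and a gene length, made with featureCounts on mm10 per the labels. No column was left unmapped, and the per-sample files equalled the matrix. Symbols came from RefSeq (GRCm38), which matched 25275 of 27179 genes (93.0%). Genes passing filterByExpr were kept, without predicted, ribosomal and unmatched genes (13927 genes). Counts were tested with edgeR 4.0.16 in R 4.3.3 (TMM, glmQLFit, prior count 0.125, 1 mean per line), Benjamini-Hochberg adjusted over these genes at a threshold of 0.05. Standard errors were derived from the F statistic and are approximate. CPM used TMM library sizes. Intervals cover counting error only, at 95%. Members given in full passed the threshold, changed by at least 1 on the log2 scale and had libraries that did not overlap. Other pathway genes were named by the 3 largest changes in each direction. The members and lists were chosen with earlier results of these data known. DESeq2 1.42.0, limma 3.58.1, other filters, a replicate block and single libraries left out were tried as alternatives. The fit was tested on simulated data. The result of 1 leucocyte marker is not reported here.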

Additional observations from a re-analysis of the deposited data

How the results depend on the processing

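For the 46 calls of members in the first 3 comparisons (the pairs, 4T1.2 against 4T1, 66cl4 against 67NR), 692 values under alternatives were computed, of which 663 kept direction and call, 29 lost the call and none reversed. In the comparisons of single lines across the pairs, calls were also lost for Fzd5 (4T1 against 66cl4, 7 alternatives, adjusted p 0.0538 to 0.222), Lrp5 (4T1.2 against 67NR, 5 alternatives, 0.0533 to 0.271) and Fzd2 (4T1.2 against 66cl4, 0.0547 without 66cl4 replicate 1). Of 152 counts of calls, 140 stayed within 1.5 times and 12 moved. With at least 10 counts in every library, 13 members were tested: called were 12 between the pairs, 3 for 4T1.2 against 4T1, 10 and 9 for 4T1.2 against 66cl4 and 67NR, 10 and 9 for 4T1 against 66cl4 and 67NR, and 2 other pathway genes for 4T1.2 against 4T1. With the lines pooled into 2 groups of 4 libraries, 12 other pathway genes were called between the pairs and 19 members. In that fit Wnt5b, Wnt9a, Fzd2 and Fzd5 lost their calls (adjusted p = 0.058, 0.184, 0.167 and 0.40), and a member not called in the main fit gained a call. Leaving out each library in turn gave 22 to 23 members between the pairs, 3 to 10 for 4T1.2 against 4T1, 13 to 17 for 66cl4 against 67NR, 19 to 21 and 18 to 19 for 4T1.2 against 66cl4 and 67NR, 20 to 21 and 19 to 20 for 4T1 against 66cl4 and 67NR; for other pathway genes 16 to 21, 3 to 9 and 8 to 16 in the first 3 comparisons. The count of 9 came without 4T1 replicate 1 and that of 8 without 67NR replicate 2. The labels do not say whether the replicate numbers pair the samples. Differences between replicates correlated between lines from -0.123 to 0.27, highest for 4T1.2 with 4T1, which cannot settle it. With the replicate number as a block, 22, 8 and 16 members were called in the first 3 comparisons and no call of a member changed there. Where depth limits a gene at 0 counts in 4 libraries, only a floor of 3 counts could be given.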
